A study of Mus musculus with 6 samples.

Results

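Gut and islet hormones are made as precursor proteins, and the transcripts of 10 precursor genes were read here in GLUTag cells, out of 54281 genes in the count table. The genes were taken as a fixed set of symbols that mark the classical endocrine cell types of the gut, namely Gcg, Pyy and Insl5 for L cells, Cck for I cells, Gip for K cells, Sct for S cells, Nts for N cells, Sst for D cells, Ghrl for X cells and Gast for G cells. All 10 symbols were found by their Ensembl identifiers. GLUTag is a mouse enteroendocrine line that derives from a colonic tumour of a transgenic mouse in which proglucagon promoter sequence drives an oncogene, and it is used as a model of the L cell. The 6 libraries were prepared from untreated cells that had been grown for 48 h in DMEM with 1 g/L glucose and 10% FBS on 0.4% Matrigel. Plate 1 gave 3 libraries at passage 23 and plate 2 gave 3 libraries at passage 27, so that plate and passage cannot be told apart. The libraries sequence the 3′ end of each polyadenylated transcript, and a count therefore stands for a transcript irrespective of its length.

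In the gut epithelium each enteroendocrine cell makes a small set of these hormones. Precursors are cut by prohormone convertases inside secretory granules, and a single precursor can give several peptides. Proglucagon is cut to GLP-1, GLP-2 and oxyntomodulin in L cells and to glucagon in the alpha cells of the islet. Many L cells of the small intestine also make CCK or neurotensin, whereas L cells of the distal gut make PYY and INSL5.

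The total count per library lay between 21399987 and 23994226 on plate 1 and between 28083507 and 36488198 on plate 2. Depth and plate therefore cannot be told apart. Values are given as CPM, counts scaled to a library total of 1000000. Where no read was counted, a true level of up to 3 counts is still possible, which is 0.0822 to 0.14 CPM depending on the library and covers counting error only. As these are bulk libraries, fewer cells that express a gene and less of its RNA per cell cannot be told apart. Plate 2 libraries could not be matched to single replicate labels and are numbered here by rising total. Plate 2 library 2 stood apart from the rest. Among the 5031 genes that averaged 30 CPM or more, 354 fell below the mean of its plate mates by over 2-fold, against at most 3 such genes in any other library. In plate 2 library 3, 49 genes exceeded the mean of its plate mates by over 2-fold, against at most 4 in any other library, and 4 did so when it was set against plate 2 library 1 alone. Comparisons between the plates are given with and without plate 2 library 2. The label of an enteroendocrine cell was checked against its markers. All 6 marker genes (Chga, Chgb, Scg2, Neurod1, Insm1 and Pcsk1) had more than 3 counts in every library. Markers of other cell types were mostly at or near 0. None of 3 Paneth cell, 4 leukocyte and 3 beta cell markers passed 3 counts in every library, and the summed leukocyte list stayed between 0.0834 and 0.819 CPM. More than 3 counts in every library were found for 2 of 4 enterochromaffin, 3 of 7 enterocyte, 1 of 4 goblet, 1 of 3 stem cell, 1 of 3 tuft and 1 of 5 fibroblast markers. The highest of these genes were Tff3 of the goblet cell list at 37.8 ± 2.42 CPM (SD, n = 6), Dclk1 of the tuft cell list at 67.2 ± 5.77 CPM (SD, n = 6), Col1a2 of the fibroblast list at 5.87 ± 0.932 CPM (SD, n = 6), Tac1 and Slc18a1 of the enterochromaffin list at 12 ± 1.89 and 5.87 ± 0.918 CPM (SD, n = 6), Lgr5 of the stem cell list at 3.19 ± 1.16 CPM (SD, n = 6) and Vil1 of the enterocyte list at 2.13 ± 0.735 CPM (SD, n = 6), while no library had over 6 counts of Muc2, 1 of Pou2f3 or 4 of Dcn.

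The promoters of the 3 genes with the most transcripts and of the 2 genes with the fewest are shown first, since they are the ends of the order described below. Each is the RefSeq window of 250 bases before to 50 bases after the transcription start on GRCm38.p6, written 5′ to 3′ along the gene. All 10 genes had an entry, with 15 windows in all. Capitals mark exact matches, on either strand, to TATAAA (the TATA box), CAGATG (an E-box form bound by NEUROD1 and related factors), TAATTA (a homeodomain core) or TGACGTCA (the cAMP response element). These windows are Gcg at chr2:62483604-62483903, Cck at chr9:121495645-121495944, Sct at chr7:141279084-141279383 and Sst at chr16:23890795-23891094, all on the minus strand, and Gip at chr11:96024295-96024594 on the plus strand.
Gcg: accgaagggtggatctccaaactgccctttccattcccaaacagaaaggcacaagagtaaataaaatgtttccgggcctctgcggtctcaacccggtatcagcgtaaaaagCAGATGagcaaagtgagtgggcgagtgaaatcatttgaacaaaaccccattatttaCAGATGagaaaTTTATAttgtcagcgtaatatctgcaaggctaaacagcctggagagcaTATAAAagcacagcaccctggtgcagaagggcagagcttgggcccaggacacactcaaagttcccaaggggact
Cck: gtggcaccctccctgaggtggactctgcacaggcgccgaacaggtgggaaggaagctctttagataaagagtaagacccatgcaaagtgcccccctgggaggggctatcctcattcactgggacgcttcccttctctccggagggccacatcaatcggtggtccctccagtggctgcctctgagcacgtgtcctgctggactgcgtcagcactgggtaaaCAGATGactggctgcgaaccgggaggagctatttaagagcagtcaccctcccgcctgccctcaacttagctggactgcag
Sct: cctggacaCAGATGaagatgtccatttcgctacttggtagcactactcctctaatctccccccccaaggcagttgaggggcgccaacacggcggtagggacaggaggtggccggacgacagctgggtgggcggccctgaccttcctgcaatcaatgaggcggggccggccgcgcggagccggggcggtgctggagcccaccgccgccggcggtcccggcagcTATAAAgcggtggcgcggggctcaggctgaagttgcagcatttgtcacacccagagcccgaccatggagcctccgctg
Sst: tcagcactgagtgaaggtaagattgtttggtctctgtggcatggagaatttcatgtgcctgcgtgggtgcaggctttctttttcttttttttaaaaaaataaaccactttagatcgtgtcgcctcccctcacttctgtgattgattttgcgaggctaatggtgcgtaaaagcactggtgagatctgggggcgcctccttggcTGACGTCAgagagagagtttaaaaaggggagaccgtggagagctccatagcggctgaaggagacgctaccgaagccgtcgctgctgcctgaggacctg
Gip: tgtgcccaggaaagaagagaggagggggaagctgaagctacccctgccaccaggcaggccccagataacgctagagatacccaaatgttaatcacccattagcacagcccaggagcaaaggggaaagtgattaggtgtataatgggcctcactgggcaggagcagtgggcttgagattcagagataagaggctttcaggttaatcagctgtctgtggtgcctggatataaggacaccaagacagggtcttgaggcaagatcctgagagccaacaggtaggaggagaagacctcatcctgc

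TATAAA was found in 13.6% of 32851 promoter windows of this length, CAGATG in 17.2%, TAATTA in 5.29% and TGACGTCA in 1.79%. The windows of Gcg, Cck and Sct each held CAGATG. In Gcg it stood at -139 to -134 and at -83 to -78, counted from the transcription start, and in Cck it stood at -30 to -25. TATAAA lay at -24 to -19 in Gcg and at -28 to -23 in Sct, and Gcg also held it on the opposite strand at -72 to -67. The only TGACGTCA among the 15 windows was in Sst at -48 to -41, and none of the 4 motifs was in the window of Gip. Of the remaining genes, Gast and Insl5 held TATAAA, Insl5 and Ghrl held CAGATG, and the windows of Nts and Pyy held none of the 4. The GC content of the window was 47% in Gcg, 59.3% in Cck and 66.7% in Sct, against a median of 52.7% over all windows. These matches describe the letters of the windows and are not measured binding sites.

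Transcripts of 6 of the 10 genes (60%) were above 3 counts in every library, against 28.1% of all genes in the table. That share is taken over 54281 genes, of which 27237 had a count of 0 in every library. In the order of mean CPM these were Gcg, Cck, Sct, Gast, Nts and Insl5. Pyy, Ghrl, Sst and Gip did not pass 3 counts in every library, and had at most 17, 7, 1 and 0 counts in a library. The 10 genes together took 0.495% ± 0.0573 (SD, n = 6) of all counts. Within that sum, Gcg made up 68.4% ± 8.32 (SD, n = 6), Cck 22.3% ± 6.86 (SD, n = 6) and Sct 8.41% ± 1.5 (SD, n = 6), while Gast made up 0.487% ± 0.0752 (SD, n = 6).

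**Figure D1:**
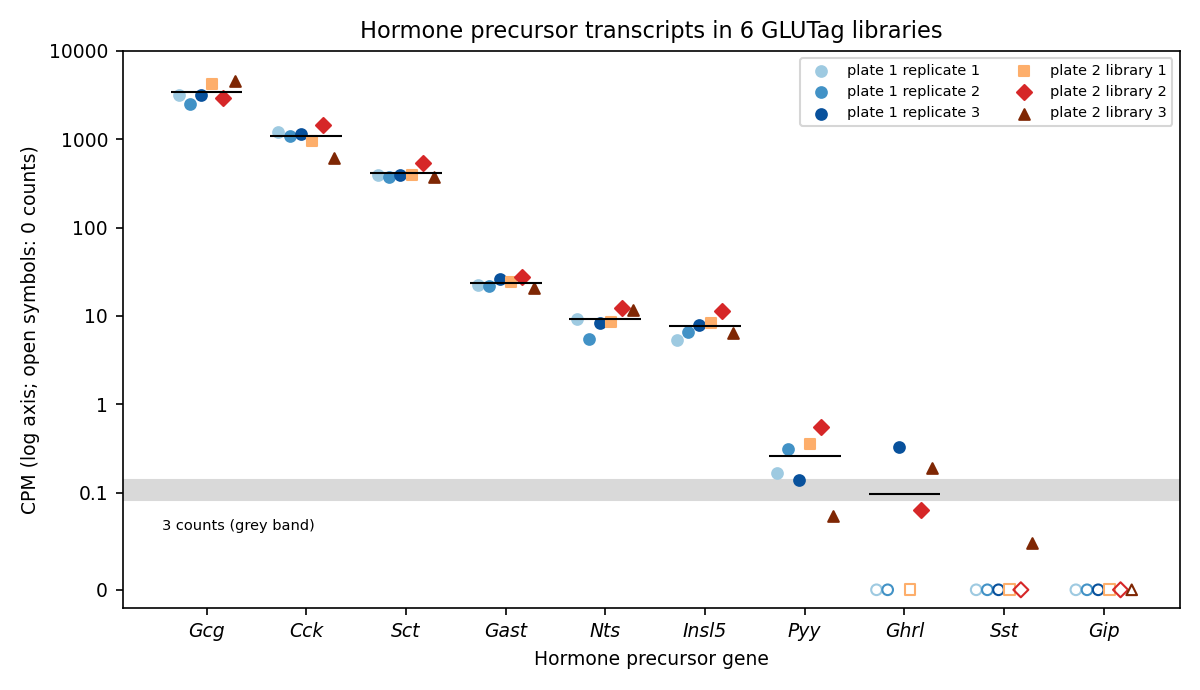
CPM of the 10 hormone precursor genes in each library, on a log axis with counts of 0 drawn as open symbols at the bottom; black lines are means over the 6 libraries and the grey band is the level of 3 counts. Gcg, Cck and Sct lie at or above 374.1 CPM in every library, Gast, Nts and Insl5 lie between 5.33 and 27.5 CPM, and the other 4 genes lie at or below 0.55 CPM.

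Gcg (ENSMUSG00000000394, chromosome 2 of GRCm38, 62474530 to 62483650, minus strand) encodes proglucagon. Its level was 3159, 2529.9 and 3185 CPM in replicates 1, 2 and 3 of plate 1, and 4188, 2914 and 4519 CPM in libraries 1, 2 and 3 of plate 2. Plate 2 libraries 1 and 3 were above every plate 1 library, and plate 2 library 2 lay within the range of plate 1. The mean was 3416 ± 771 CPM (SD, n = 6), which placed Gcg at rank 19 of all genes by mean CPM. Rps16, a protein of the small ribosomal subunit, was next above it at 3419.8 ± 265 CPM (SD, n = 6), and Hsp90aa1, a cytosolic chaperone, was next below it at 3286 ± 359 CPM (SD, n = 6). Its rank in single libraries ran from 12 to 27.

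Cck (ENSMUSG00000032532, chromosome 9, 121489824 to 121495694, minus strand) encodes procholecystokinin, the precursor of a peptide that drives gallbladder contraction and pancreatic enzyme release. It had 1219.8, 1096 and 1154 CPM on plate 1 and 957.5, 1438 and 614.6 CPM on plate 2. The plate 1 libraries lay close together, whereas plate 2 held both the highest and the lowest value. Gcg exceeded Cck in 6 of 6 libraries, from 2.03-fold in plate 2 library 2 to 7.35-fold in plate 2 library 3. In the 3 plate 1 libraries this ratio was 2.59, 2.31 and 2.76, and in plate 2 library 1 it was 4.37.

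Sct (ENSMUSG00000038580, chromosome 7, 141278330 to 141279133, minus strand) encodes the precursor of secretin, which stimulates bicarbonate secretion by the pancreas. It was measured at 393.2, 378.1 and 393.5 CPM on plate 1 and at 398.1, 535.3 and 374.1 CPM on plate 2. Of the 6 libraries, 5 lay within 374.1 to 398.1 CPM, and plate 2 library 2 was above them. Gast (ENSMUSG00000017165, chromosome 11, 100334407 to 100336996, plus strand), the precursor of the gastric acid secretagogue gastrin, had 22.6, 21.9 and 26.2 CPM on plate 1 and 24.1, 27.5 and 20.7 CPM on plate 2. The plates overlapped fully. CCK and gastrin share their C-terminal residues and act on a common receptor, and the Cck transcript was the more abundant of the pair in each library.

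Nts (ENSMUSG00000019890, chromosome 10, 102481756 to 102490486, minus strand), which encodes the precursor of neurotensin, had 9.17, 5.52 and 8.41 CPM on plate 1 and 8.65, 12.3 and 11.8 CPM on plate 2. Insl5 (ENSMUSG00000066090, chromosome 4, 103017872 to 103026842, minus strand) encodes a relaxin-family peptide of colonic L cells. It had 5.33, 6.63 and 7.99 CPM on plate 1 and 8.23, 11.3 and 6.41 CPM on plate 2. Plate 1 and plate 2 values overlapped for both genes. From 125 to 430 counts per library stood behind Nts and from 128 to 348 counts behind Insl5.

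Pyy (ENSMUSG00000017311, chromosome 11, 102106676 to 102107832, minus strand), the precursor of the ileal and colonic satiety peptide PYY, had 4, 7 and 3 counts on plate 1 and 10, 17 and 2 counts on plate 2. Counts were above 3 in 4 of the 6 libraries. Ghrl (ENSMUSG00000064177, chromosome 6, 113716119 to 113719880, minus strand), the precursor of the orexigenic peptide ghrelin, had 7 counts in plate 1 replicate 3, 2 in plate 2 library 2, 7 in plate 2 library 3 and 0 in the others. The annotation places Gm26982 and Gm44033 on the opposite strand within the span of Ghrl, and reads of the 2 strands could be told apart only if the counting used strand, which is not given in the sources used here. No gene overlaps any of the other 9. Sst (ENSMUSG00000004366, chromosome 16, 23889573 to 23890958, minus strand), the precursor of the inhibitory peptide somatostatin, had 1 count in plate 2 library 3 and 0 in the other 5. Gip (ENSMUSG00000014351, chromosome 11, 96024545 to 96030831, plus strand), the precursor of the incretin hormone of K cells, had 0 counts in 6 of 6 libraries, so that any transcript was below what this depth can show. Against 3 counts in each library, Gcg was at least 19086-fold higher than Gip, Cck at least 7475-fold and Sct at least 2807-fold, each taken in the library with the lowest ratio.

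Neighbours in this order were set against each other inside each library, as a log2 ratio after adding 1 CPM to each value. The test was a two-sided exact permutation test that flips the signs of the 6 differences, and p was adjusted over 9 pairs after Benjamini and Hochberg. The pairs were set by the same values, and the libraries of a plate are not stated to come from separate cultures. The p therefore describes only how consistent the direction was over these libraries. It takes its smallest value whenever all 6 differences have the same sign, whatever their spread. The mean log2 difference was 1.68 ± 0.70 for Gcg against Cck, 1.35 ± 0.34 for Cck against Sct, 4.05 ± 0.12 for Sct against Gast, 1.30 ± 0.36 for Gast against Nts and 2.75 ± 0.22 for Insl5 against Pyy (each SD, n = 6). The last of these depends on the added 1 CPM, since Pyy is below it, and was 4.53 with 0.1 CPM and 1.25 with 5 CPM added. In these 5 pairs the direction was the same in 6 of 6 libraries and the difference exceeded its SD. Each gave an exact permutation p of 0.03125, the smallest that 6 libraries allow, which became 0.0563 after adjustment and did not pass 0.05. With 5 of the 9 pairs at the smallest p, the adjusted p of these 5 could not be lower. The adjusted test therefore cannot decide their order. The levels of Nts and Insl5 differed by less than their spread over the libraries, with a mean log2 difference of 0.25 ± 0.40 (SD, n = 6), Nts higher in 5 of 6 libraries and an exact permutation p of 0.25 (adjusted p = 0.281). Pyy against Ghrl gave 0.20 ± 0.32 (SD, n = 6; exact permutation p = 0.1875, adjusted p = 0.281), and at the low counts of Ghrl, Sst and Gip no order was resolved.

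**Figure D2:**
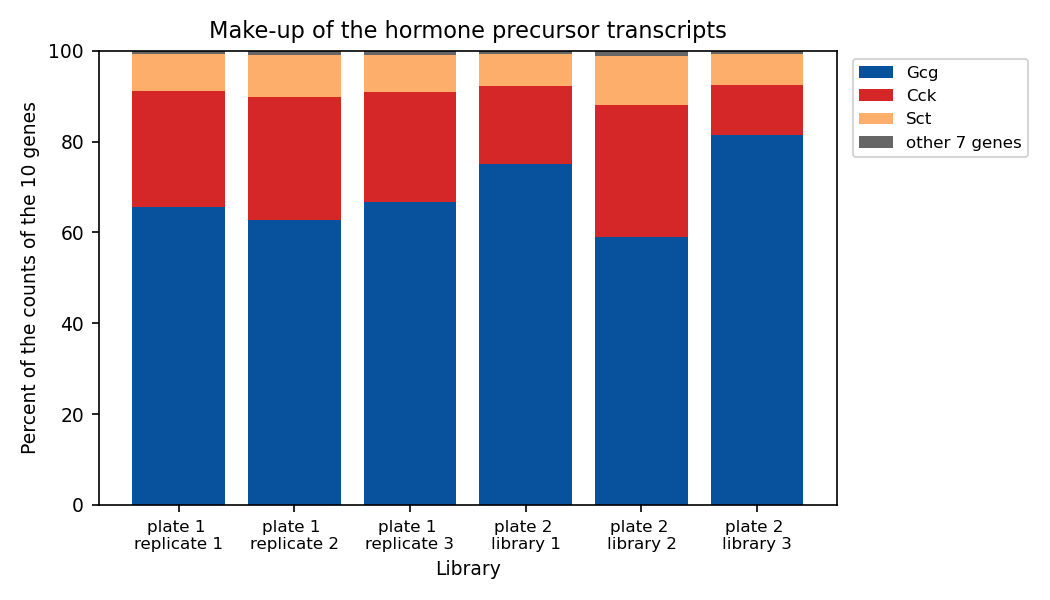
Share of the summed counts of the 10 genes that each gene took, per library, in percent. Gcg took from 59.0% in plate 2 library 2 to 81.5% in plate 2 library 3, Cck from 29.1% to 11.1% in the same libraries, and the 7 genes other than Gcg, Cck and Sct are the thin band at the top.

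The detected genes did not vary alike over the libraries. In plate 2 library 2, Gcg was lower than the mean of the other plate 2 libraries, with a log2 difference of -0.58. In that library Cck was higher by 0.87, Insl5 by 0.62, Sct by 0.47, Gast by 0.30 and Nts by 0.27 on the same scale. Thus 5 of the 6 detected genes were above their plate and Gcg was below it. Against plate 2 library 1 alone, the log2 difference of library 2 was 0.59 for Cck, 0.51 for Nts and 0.45 for Insl5. It was 0.43 for Sct, 0.19 for Gast and -0.52 for Gcg. Plate 2 library 3 was set against library 1 alone, since a mean that holds library 2 would carry over its shifts. On this log2 scale Cck was at -0.64 in library 3, Insl5 at -0.36, Gast at -0.22, Sct at -0.09, Gcg at 0.11 and Nts at 0.45. The share of counts from mitochondrial genes was highest in this library, at 7.27%, against 3.98% to 5.32% in the other 5, and its part in these shifts was not tested. Genes also differed by the base composition of their transcript ends. Genes in the tenth with the lowest GC content of the last 200 nt (19% to 28.5%) had a median log2 difference of -0.42 between plate 2 library 2 and the mean of its plate mates, and of 0.04 between library 3 and library 1. Those in the tenth with the highest GC content (51.5% to 66.5%) had medians of 0.32 and -0.13. The last 200 nt held 33.5% GC in Gcg, 31.5% in Nts, 39.0% in Insl5, 46.5% in Cck, 53.0% in Gast and 54.5% in Sct, against a median of 39.5% over 4892 genes with means from 30 CPM upward, a level that Gast, Nts and Insl5 did not reach. Gast and Sct thus lay within the range of 51.5% to 66.5% GC, whereas Gcg, Nts, Insl5 and Cck lay between 28.5% and 51.5%, outside both ranges. The part of base composition in the shifts of single hormone genes was not tested.

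**Figure D3:**
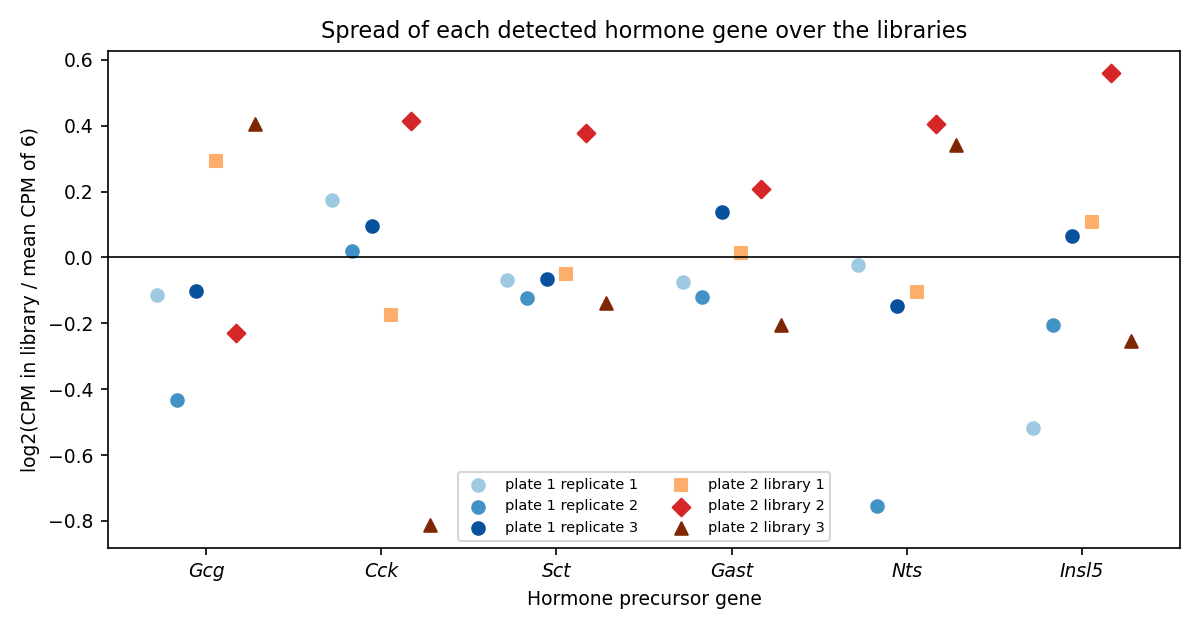
Level of each detected hormone gene in a library relative to its mean over the 6 libraries, as log2 of the CPM ratio, with a symbol for each library. Plate 2 library 2 is the highest library for Cck, Sct, Gast, Nts and Insl5 and lies below the mean for Gcg, and Cck is lowest in plate 2 library 3 at 614.6 CPM.

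Genes whose level followed that of Gcg or Cck most closely were sought among 5030 other genes that averaged 30 CPM or more, by Pearson's r of log2(CPM + 1) over the 6 libraries. Lsm14a (r = 0.998), Aldh9a1 (r = 0.996) and Apc (r = 0.994) were most like Gcg. Prdx5 (r = 0.998), Atp5mpl (r = 0.994) and Mt2 (r = 0.986) were most like Cck. The same measure between Cck and Gcg was -0.78, which placed Cck at rank 4905 of the 5030 genes. The 6 points come from 2 plates, share the scaling to the library total and include the library that stands apart, so that these values describe the libraries only. With TMM scaling (a trimmed mean of gene ratios between libraries), Aldh9a1 and Apc were again among the 3 genes closest to Gcg, and Fau, Polr2f and Rps4x were closest to Cck. Between Cck and Gcg r was then -0.79, which placed Cck at rank 4406.

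Plate and passage are the only labelled difference between the libraries. Plate 2 was therefore compared with plate 1 in edgeR's quasi-likelihood test with TMM scaling and Benjamini-Hochberg adjustment over 15669 genes, of which 29 (0.185%) had an adjusted p under 0.05 and 2520 (16.1%) an unadjusted p under 0.05. Of the 10 hormone genes, Gcg, Cck, Sct, Gast, Nts and Insl5 passed the filter on low counts. None of these 6 differed between the plates at an adjusted or an unadjusted p under 0.05 in edgeR with 6 libraries. DESeq2, limma-voom, edgeR without TMM and edgeR without a filter gave an adjusted p under 0.05 for 0 of the 6 as well, where they called 3.8%, 0.0638%, 9.46% and 2.02% of all genes tested. The largest change in edgeR was that of Cck, at -0.47 on the log2 scale (standard error 0.29, adjusted p = 0.485). Gcg was at 0.12 (standard error 0.17, adjusted p = 0.783), Nts at 0.24 (standard error 0.23), Insl5 at 0.11 (standard error 0.25), Sct at -0.10 (standard error 0.15) and Gast at -0.23 (standard error 0.15). The median over the 6 genes was 0.01, against 0.03 over all genes tested. Scaling to the library total alone moved the median of all genes to 0.30, and Sct and Gast were then at 0.17 and 0.03 in place of their negative values. With that scaling Gcg was at 0.39, Nts at 0.50, Insl5 at 0.38 and Cck at -0.20.

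The outcome for Cck and Sct rested on plate 2 library 2. The mitochondrial share was 3.98% to 4.85% on plate 1 and 4.62% to 7.27% on plate 2, and its part in the plate comparison was not tested. Without plate 2 library 2, Cck was -0.87 (standard error 0.17, adjusted p = 0.0131) and Sct -0.32 (standard error 0.08, adjusted p = 0.0255) on the log2 scale in edgeR's quasi-likelihood test. In that fit 1911 of 15894 genes, or 12%, had an adjusted p under 0.05. An unadjusted p under 0.05 was found there for 4 of the 6 hormone genes, against 26.8% of all genes. Gast was at -0.38 (standard error 0.13, adjusted p = 0.0633) and Gcg at 0.25 (standard error 0.10, adjusted p = 0.116). Insl5 changed its direction to -0.17, and Nts was at 0.11. For Cck the remaining CPM values of plate 2, 957.5 and 614.6, were below the 3 values of plate 1. For Sct the remaining CPM values of plate 2, 398.1 and 374.1, still overlapped those of plate 1, at 378.1 to 393.5. The TMM factors, which multiply the library total, were 0.886 to 0.933 on plate 1 in the scaling of 6 libraries. They were 1.11 and 1.099 in plate 2 libraries 1 and 3. The part of the TMM scaling in the difference of Sct was not tested.

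**Figure D4:**
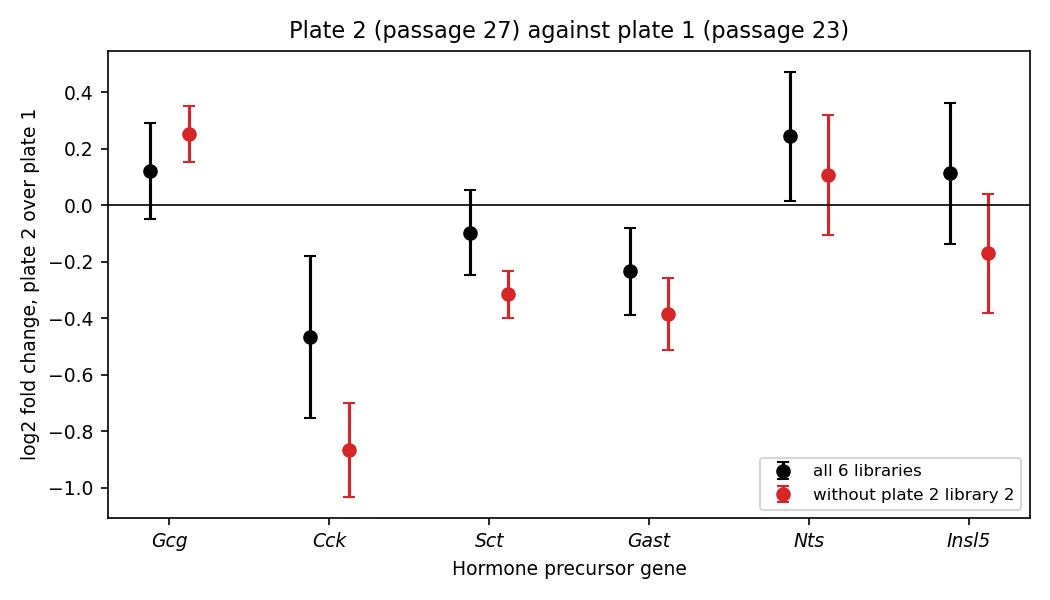
Log2 fold change of plate 2 over plate 1 for the 6 hormone genes tested, from edgeR's quasi-likelihood test, with bars of 1 standard error; black points use 6 libraries and red points leave out plate 2 library 2. Cck moves from -0.47 to -0.87 and Sct from -0.10 to -0.32 when that library is left out, while Gcg moves from 0.12 to 0.25.

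The genes that act on hormone precursors were read as fixed lists. Of 17 genes for convertases, modifying enzymes and granule proteins, 15 had more than 3 counts in every library, with a median of 64.5 CPM over the list. The highest were Chgb, a granin of the dense core granule, at 554.9 ± 92 CPM, Cpe, the carboxypeptidase that trims cleaved precursors, at 388.4 ± 134 CPM, and Chga, a further granin, at 219.2 ± 38.1 CPM (each SD, n = 6). Pcsk1, the convertase that releases GLP-1 from proglucagon, had 65.6, 51.7 and 62.8 CPM on plate 1 and 89.0, 115.5 and 113.0 CPM on plate 2. Pcsk2, the convertase that releases glucagon, had 62.6, 50.6 and 56.3 CPM on plate 1 and 50.9, 54.1 and 42.6 CPM on plate 2. All plate 2 libraries were above plate 1 for Pcsk1, as for 9 of the 15 detected genes of the list, Pcsk1 included, and for 35.5% of all genes with more than 3 counts in every library, while the plates overlapped for Pcsk2. With TMM scaling the log2 fold change was 0.56 (standard error 0.15, adjusted p = 0.135 in edgeR) for Pcsk1 and -0.46 (standard error 0.14, adjusted p = 0.165 in edgeR) for Pcsk2, so that neither passed with 6 libraries. Without plate 2 library 2, both passed in edgeR, Pcsk1 at 0.45 (adjusted p = 0.0288) and Pcsk2 at -0.58 (adjusted p = 0.00585). With the library total alone Pcsk1 was at 0.82 (adjusted p = 0.0277 in edgeR) and Pcsk2 at -0.20. None of the 15 genes of this list that were tested passed in edgeR, 5 had an unadjusted p under 0.05, against 16.1% of all genes, and their median was 0.07. With the library total alone 10 of the 15 had an unadjusted p under 0.05, against 32% of all genes. Without plate 2 library 2, 4 of the 15 passed, where 12% of all genes did. These were Pcsk1, Pcsk2, Chga at -0.53 (adjusted p = 0.00149 in edgeR) and Furin, a convertase of the secretory pathway, at -0.77 (adjusted p = 0.000152 in edgeR). DESeq2 called Furin from this list, where it called 3.8% of all genes tested. With the library total alone edgeR called Pcsk1, Cpe and Tpst2, where it called 9.46% of all genes. Without a filter edgeR called Pcsk1, Cpe and Furin, where it called 2.02% of all genes. Mboat4, the enzyme that acylates ghrelin, did not exceed 3 counts, and Pcsk5 had a mean of 0.1 CPM.

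Of 25 transcription factor genes of the enteroendocrine lineage, 17 had more than 3 counts in every library. Neurod1, Isl1 and Etv1 were highest, at 617.4 ± 89.3, 516.6 ± 28.5 and 235.4 ± 22 CPM (each SD, n = 6). Pax6, which acts on the Gcg promoter, had 207.5 CPM on average, and Cdx2, a factor of intestinal identity, had 56 CPM. Neurog3, the transient factor of endocrine progenitors, had a count of 0 in 6 of 6 libraries. Between the plates, 0 of the 18 factor genes tested passed an adjusted p of 0.05 in edgeR and 2 had an unadjusted p under 0.05, against 0.185% and 16.1% of all genes. Without plate 2 library 2, 1 of the 18 passed, against 12% of all genes, namely Rfx6, a factor of the endocrine lineage, at 0.51 on the log2 scale (adjusted p = 0.0104 in edgeR). Rfx6 also passed in edgeR with the library total alone (adjusted p = 0.0457), where 9.46% of all genes did.

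Receptors for these hormones were mostly low. Of 18 receptor genes, 7 had more than 3 counts in every library. Sstr5, a somatostatin receptor, was highest at 45.4 ± 19.7 CPM, followed by the GIP receptor gene Gipr at 6.45 ± 2.17 CPM and the somatostatin receptor gene Sstr2 at 1.42 ± 0.593 CPM (each SD, n = 6). The receptor genes Gipr, Sstr2 and Sstr5 thus had transcripts where the precursor genes Gip and Sst had no more than 1 count. Glp1r, the GLP-1 receptor gene, had a mean of 0.0646 CPM and did not exceed 5 counts. Of the 6 receptor genes tested between plates, 0 passed in edgeR and 0 had an unadjusted p under 0.05, both with 6 libraries and without plate 2 library 2, where 16.1% and 26.8% of all genes had one. With the library total alone 4 of the 6 had an unadjusted p under 0.05, against 32% of all genes, and 0 passed. Of 17 other peptide precursor genes of gut and islet, 5 had more than 3 counts in every library. The highest were Cartpt at 23.6 ± 11.4 CPM, Tac1, the substance P precursor gene, at 12 ± 1.89 CPM, and Adm, the adrenomedullin gene, at 7.5 ± 2.45 CPM (each SD, n = 6), means close to those of Gast, Nts and Insl5. Ppy, the pancreatic polypeptide gene of the same family as Pyy, had 4 to 26 counts per library, and the insulin genes Ins1 and Ins2 had a count of 0 in 6 of 6 libraries. Of the 5 tested between plates, 1 passed in edgeR with the filter on low counts, TMM scaling and 6 libraries, against 0.185% of all genes. This was Cartpt, the single gene of these partner lists past the threshold there. It had 12.6, 13.4 and 14.9 CPM on plate 1 and 32.2, 38.7 and 30.1 CPM on plate 2. All its plate 2 values were above plate 1, as for 35.5% of all genes with more than 3 counts in every library. Its log2 change was 1.04 (standard error 0.15, adjusted p = 0.046 in edgeR). Its adjusted p was 0.0791 in limma-voom and between 0.000533 and 0.349 over the edgeR fits that left out a library. In those edgeR fits its log2 change ran from 0.88 to 1.12. Its adjusted p was 3.83e-05 in DESeq2, where 3.8% of all genes passed. In edgeR it was 0.0273 with the library total alone and 1.75e-05 without a filter, where 9.46% and 2.02% of all genes passed. Adm had an adjusted p of 0.122 in edgeR with the filter, TMM scaling and 6 libraries. It passed in edgeR without the filter, at -0.99 (adjusted p = 0.00623), without plate 2 library 2, at -1.36 (adjusted p = 0.000396 in edgeR), and in DESeq2 (adjusted p = 0.0129). In these fits 2.02%, 12% and 3.8% of all genes passed.

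**Figure D5:**
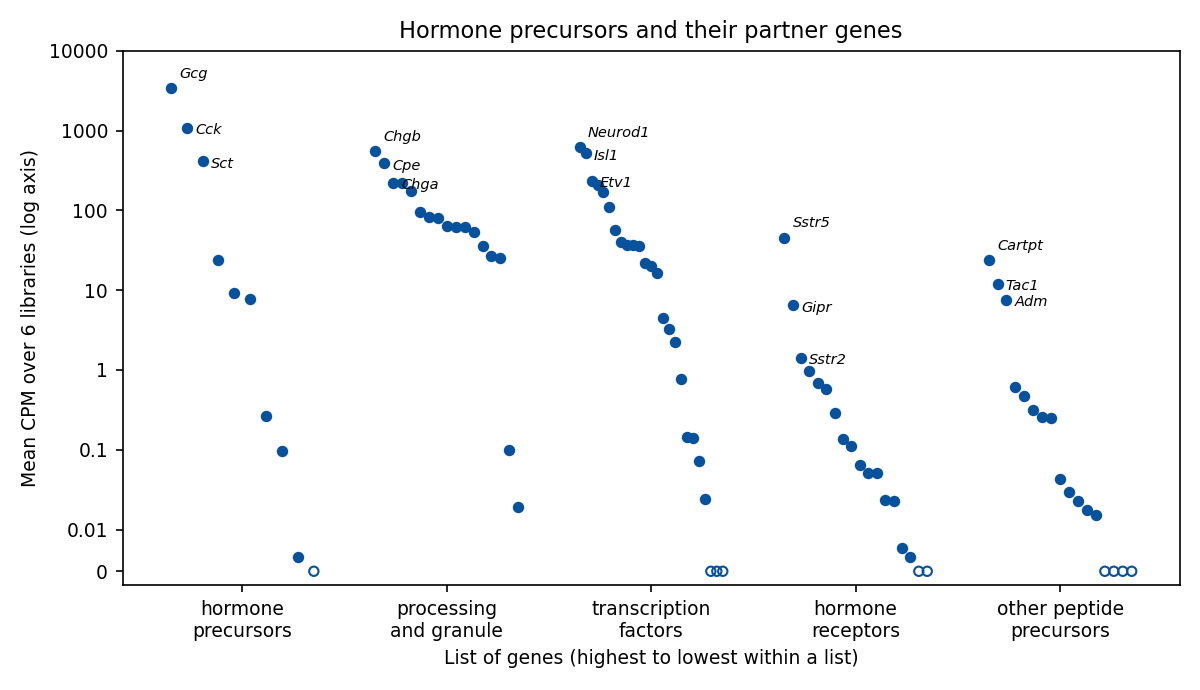
Mean CPM over the 6 libraries for each gene of the hormone list and of 4 partner lists, sorted from highest to lowest within a list on a log axis, with genes at a count of 0 as open symbols and the top 3 of each list named. Most processing genes and transcription factors lie above 10 CPM, while most receptors and other peptide precursors lie below 1 CPM.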

How the data were processed

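GLUTag libraries were made by the authors with the QuantSeq 3′ mRNA-Seq FWD kit. The authors trimmed reads with Trim Galore 0.6.4, quantified GENCODE M23 transcripts of GRCm38 in Salmon 1.5.1 with the length correction switched off, and used Tximeta to reach gene level. What was deposited is a table of expected counts that had not been normalized. Plate 1 columns were matched to replicates 1 to 3, and plate 2 columns only to their plate. Symbols and positions are from GENCODE M21 on GRCm38, which matched 54107 of 54281 identifiers.

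CPM used unrounded counts, and counts were rounded for edgeR 4.0.16 (quasi-likelihood test in its robust form, after filterByExpr and TMM) and DESeq2 1.42.0. The plate test was run on simulated counts with known changes, in which no library stood apart as plate 2 library 2 does. The simulation therefore does not cover that feature of the data. Alternatives were DESeq2, limma-voom (limma 3.58.1), other filters and scalings, pseudocounts of 0.1 and 5 CPM, a total without mitochondrial genes and the omission of each library. R 4.3.3, Python 3.11.15, numpy 2.4.6 and scipy 1.17.1 were used. The transcript end of a gene was the last 200 nt of its longest protein-coding transcript.

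The hormone genes and the gene lists were chosen with earlier results of these data known. Named were the 10 hormone genes, the 3 highest genes of each list, list genes past the plate threshold, the 3 genes most like Gcg and Cck, and the genes ranked next to Gcg. Pcsk1, Pcsk2, Furin, Tpst2, Mboat4, Pcsk5, Rfx6, Pax6, Cdx2, Neurog3, Glp1r, Ppy, Ins1, Ins2 and single markers of other cell types were named for their role after their values were seen. The comparisons of plate 2 library 2 and of plate 2 library 3 with library 1 alone were chosen then too. The secretion, siRNA and L-cell experiments were not analysed here.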

Additional observations from a re-analysis of the deposited data

Results flagged for a closer look

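Of 29 values examined over the 6 libraries (the detected hormone genes, the 3 highest genes of each list where they averaged 10 counts or more, the summed hormone share and the ratio of Gcg to Cck), 3 had a library whose gap to the nearest other exceeded 0.625 of the whole range. Chance gives about 1 in 20 such values. In each of the 3 the high library was plate 2 library 2, which stands apart over many genes. Sct was at 535.3 CPM there against 374.1 to 398.1 CPM in the other 5 libraries (gap 0.851 of the range). Chga was at 290.2 CPM against 186.1 to 222.2 CPM (gap 0.654), and Sstr5, the somatostatin receptor gene, at 84.6 CPM against 32.3 to 45.2 CPM (gap 0.753). The part of the library in these values was not tested.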

How the results depend on the processing

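The mean CPM of Gcg was 3382 with TMM scaling, 3453 with DESeq2's size factors and 3602 without mitochondrial genes in the total, each within 1 SD of the main value, and the summed hormone share was 0.521% without mitochondrial genes. No neighbour pair changed direction with a pseudocount of 0.1 or 5 CPM or when a library was left out, except that Sst and Gip were both at 0 without plate 2 library 3. The count of genes that differ between the plates was unstable: 29 with edgeR, 529 with DESeq2, 10 with limma-voom, 1482 with the library total alone and 545 without a filter, and from 0 to 1911 when single libraries were left out. It was 0 without plate 1 replicate 1 or plate 2 library 1, where 1611 and 2121 genes had an unadjusted p below 0.05, and 2, 6 and 9 without plate 1 replicate 2, plate 1 replicate 3 and plate 2 library 3. The cause was not tested.

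Among the log2 changes of the hormone genes between plates, none of which passed with 6 libraries, the direction reversed for Gcg (-0.0043) and Sct (0.0026) without plate 2 library 3, for Sct (0.17) and Gast (0.031) with the library total alone, and for Insl5 without plate 1 replicate 1 (-0.03) or plate 2 library 2 (-0.17). Over the omissions of single libraries these changes ran from -0.0043 to 0.25 for Gcg, from -0.32 to 0.0026 for Sct, from -0.87 to -0.21 for Cck, from -0.38 to -0.13 for Gast, from 0.07 to 0.40 for Nts and from -0.17 to 0.29 for Insl5. Among the hormone genes, Cck and Sct passed only without plate 2 library 2. A level of 1 CPM or more throughout was reached by 3 of 17 other peptide precursors and 2 of 18 receptors, against 5 and 7 with more than 3 counts. Differences at the counts of Ghrl, Sst and Gip cannot be resolved at this depth. No paired analysis was possible because the sample titles give the plates different numbers. The column numbers start again on plate 2, where they are tied to no title, and are not stated to pair libraries.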
